A study of Homo sapiens with 6 samples.

Results

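Type I interferon signalling in cultured lung fibroblasts was followed through 9 genes, namely the cytokine gene IFNB1, the virus sensors IFIH1 and TLR3, the transcription factors IRF1, IRF3, IRF7, IRF9 and STAT2, and the chemokine gene CXCL10. Each of the 9 symbols was found once in each of 2 expression tables, which hold 25370 rows each. IFNB1 was chosen by its measured levels, which lay in opposite directions in JUN WT and JUN AA, and the other genes were added as parts of the same pathway, so the values of the first table are given as a description. The libraries came from MRC5, a line of human embryonic lung fibroblasts that had been immortalized with hTERT. In the first table (JUN overexpression), MRC5 cells were infected for 2 h with adenovirus carrying an empty vector (control), FLAG-tagged JUN WT or FLAG-tagged JUN AA, in which both serines phosphorylated by JNK are replaced with alanine, and were cultured for 3 days. In the second table (JNKi), no adenovirus was used. It holds untreated MRC5, iCAFs made by 7 days in conditional medium from MDA-MB-231 breast cancer cells, and iCAFs exposed to 1 µM of the JNK inhibitor JNK-IN-8 (JNKi) for 48 h. DMSO is named as the vehicle, but not tied to a library. All 3 libraries of the first table, the control included, carried adenovirus, and the amount of virus per cell is not given in the sources used here.

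Cells recognise viral nucleic acid by sensors such as the endosomal receptor TLR3 and the cytosolic helicase IFIH1 (MDA5), which lead to activation of IRF3 and transcription of IFNB1. Secreted interferon β binds the receptor chains IFNAR1 and IFNAR2, and the kinases JAK1 and TYK2 then phosphorylate STAT2, which joins IRF9 in the complex ISGF3. ISGF3 binds interferon-stimulated response elements (ISREs) and raises many genes, among them those of IRF7, IRF9, STAT2, the sensors and the chemokine CXCL10. JUN has a known place in this pathway, since the IFNB1 enhancer is bound by ATF2 with JUN, by IRFs and by NF-κB at neighbouring elements.

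The regions upstream of IFNB1, of the sensor gene IFIH1 and of CXCL10 are shown because the levels of these genes differed widely between the libraries and because each holds elements of the kinds named above. Each sequence is the 250 bases before the transcription start site from RefSeq, written 5′ to 3′ on the strand of the gene, and each matched GRCh37 (the assembly also called hg19, to which the reads were mapped) at a single place. That place is chr9:21077942-21078191 on the minus strand for IFNB1, chr2:163175195-163175444 on the minus strand for IFIH1 and chr4:76944651-76944900 on the minus strand for CXCL10. Capitals mark every match, on either strand, to the ISRE (GAAANNGAAA), the shorter IRF element (AANNGAAA), an NF-κB element (GGGANNTTCC), the AP-1 element (TGANTCA), the CRE (TGACGTCA), the JUN and ATF2 site of the IFNB1 enhancer (TGACATAG) and the GAS element (TTCNNNGAA), where N is any base.
IFNB1: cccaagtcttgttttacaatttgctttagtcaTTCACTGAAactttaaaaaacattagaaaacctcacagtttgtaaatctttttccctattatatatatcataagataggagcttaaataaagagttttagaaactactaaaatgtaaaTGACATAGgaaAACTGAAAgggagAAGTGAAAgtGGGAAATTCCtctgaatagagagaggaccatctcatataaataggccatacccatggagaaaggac
IFIH1: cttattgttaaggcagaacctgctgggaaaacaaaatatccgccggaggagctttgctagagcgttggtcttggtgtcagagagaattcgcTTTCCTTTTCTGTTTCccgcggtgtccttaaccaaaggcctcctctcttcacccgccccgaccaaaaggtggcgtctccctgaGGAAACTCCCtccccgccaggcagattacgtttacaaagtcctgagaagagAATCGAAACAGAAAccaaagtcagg
CXCL10: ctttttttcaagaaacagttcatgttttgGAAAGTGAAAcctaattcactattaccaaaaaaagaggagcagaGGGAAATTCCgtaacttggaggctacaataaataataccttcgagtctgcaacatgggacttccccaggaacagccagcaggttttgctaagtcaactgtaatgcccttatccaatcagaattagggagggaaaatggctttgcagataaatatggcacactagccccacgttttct

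In the IFNB1 sequence, the TGACATAG site began 100 bases before the start site, the 2 IRF elements 89 and 76 bases before it, and the NF-κB element 66 bases before it, while a GAS match lay 218 bases before it. IFIH1 held 3 ISRE matches, beginning 159, 153 and 21 bases before the start site, of which the first 2 overlap, together with an NF-κB match. It also held an IRF element beginning 25 bases before the start site, which overlaps the last ISRE match in part. CXCL10 held 1 ISRE match beginning 221 bases before the start site and 1 NF-κB match 177 bases before it. Of 35116 RefSeq promoters searched over the same length, 3.02% held the ISRE, 20.3% the IRF element, 1.40% the NF-κB element, 0.379% the TGACATAG site and 6.57% the GAS element. The AP-1 element, in 6.57% of all promoters, and the CRE, in 1.65%, were matched in none of the 7 promoters found among the 9 genes. Of the other promoters found, IRF9 held 1 IRF element and 1 GAS match, IRF1 held 1 GAS match, TLR3 held 2 GAS matches and STAT2 held no match. Every ISRE match contains an IRF match. A match describes these letters only and does not show binding.

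Expression was deposited as FPKM, fragments scaled to exon length and to the mapped fragments of a library, with 1 library per condition. No difference has a replicate check, no test was possible, and the number of reads behind a value is unknown. Levels are given as FPKM and differences as those of log2(FPKM + 1), on which low genes differ by less than their ratio says. The 2 tables were normalised separately, so each library is compared only with others of its own table. JUN was at 25.5 FPKM with the empty vector, 4543 with JUN WT and 291 with JUN AA, highest where JUN WT was introduced. FPKM do not separate introduced from endogenous JUN, and as JUN was far lower in JUN AA than in JUN WT, the mutation and the amount of JUN cannot be told apart. Against the control, the median gene differed by 0.15 in JUN WT and by -0.015 in JUN AA, and with JNKi the median gene differed by -0.099 from iCAFs. All 7 fibroblast markers examined were above 1 FPKM in every library, with sums from 3971 to 6148 FPKM. The epithelial marker CDH1 and the endothelial marker CDH5 were listed at 0 throughout and PTPRC, which marks blood cells, did not exceed 0.0148 FPKM. Of the epithelial list only KRT18 and of the haematopoietic list only CD68 were above 1 FPKM in all 6 libraries. The haematopoietic list summed to 86.1 FPKM in JUN WT, 33.3 FPKM in the control and 33.2 FPKM in JUN AA, nearly all of it from CD68 in each. LYZ, of the same list, was listed at 0 with the empty vector, at 0.0233 FPKM with JUN WT and at 2.03 with JUN AA. In JUN WT, control and JUN AA, the epithelial list summed to 16.2, 37.2 and 10.3 FPKM and the endothelial list to less than 1 FPKM. In JUN WT, 2 of the 7 fibroblast markers (COL1A1 and PDGFRB) were 2-fold lower than in the control, beside 3.39% of all genes. In JUN AA, 2 of the 7 (COL3A1 and PDGFRB) were 2-fold lower, beside 3.77% of all genes. The part of the marker genes in the results was not tested. In such bulk RNA, fewer cells making a transcript and less transcript per cell cannot be told apart.

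IFNB1, the ligand, spans bases 21077103 to 21077941 of chromosome 9 (GRCh37, as for all positions given). It was at 0.381 FPKM with the empty vector and 11.3 with JUN WT, and it was listed at 0 with JUN AA. JUN WT cells therefore had 29.7 times the control level, and only 8 of 10311 genes had a larger log2 difference. IFNB1 passed the filter of a mean of 1 FPKM only through its JUN WT value. At 0.38 FPKM the control value is itself low, so that the log2 difference of 3.16 became 4.57 with a pseudocount of 0.1. No fold can be given against JUN AA. Among all 21 interferon genes searched, IFNB1 was the only one above 1 FPKM in any of these 3 libraries. The lambda interferon IFNL1 was at 0.385 FPKM with the empty vector and 0.292 with JUN WT, and was listed at 0 with JUN AA, and all 13 genes for interferon α were listed at 0 in the 3 libraries. In JUN AA all 21 interferon genes were listed at 0.

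The cytosolic sensor IFIH1, on chromosome 2 from 163123584 to 163175194, was at 3.10 FPKM with the empty vector, 9.43 with JUN WT and 0.0794 with JUN AA. It was therefore 3.04 times higher in JUN WT and 39.1 times lower in JUN AA than in the control, although the JUN AA value is too low for a fold to be precise. TLR3, on chromosome 4 from 186990065 to 187009227, kept a narrower range. It was at 0.726 FPKM with the empty vector, 1.15 with JUN WT and 0.405 with JUN AA, and with a mean below 1 FPKM it did not pass the filter. The order of the libraries was the same for both sensors as for IFNB1, with JUN WT highest and JUN AA lowest.

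The 4 interferon regulatory factors did not share one pattern. IRF3, which is made constitutively and activated by phosphorylation after virus sensing, was at 38.8 FPKM with the empty vector, 34.5 with JUN WT and 34.7 with JUN AA. These values differ by less than the 2-fold change counted here under every setting computed. IRF7, the interferon-induced factor that amplifies type I interferon production, was at 30.9 FPKM with the empty vector, 43.4 with JUN WT and 0.916 with JUN AA. That made IRF7 33.8 times lower in JUN AA than in the control, and only 5 of 10311 genes had a more negative log2 difference. The JUN AA value is below 1 FPKM, so folds and ratios taken on it are not precise. With a pseudocount of 0.1 the log2 difference of -4.06 became -4.93. IRF3 transcripts were 1.25 times as abundant as IRF7 transcripts in the control and 37.9 times as abundant in JUN AA, whereas in JUN WT the ratio was 0.79 (ratios of FPKM, which are per length). IRF1, which is induced by interferons and by NF-κB, was at 12.6 FPKM with the empty vector, 8.34 with JUN WT and 3.69 with JUN AA. Unlike IRF7, it lay below the control in JUN WT, with a log2 difference of -0.54, or -0.69 once the shift of the median gene was subtracted. IRF1 lies on chromosome 5 from 131776132 to 131844411, IRF3 on chromosome 19 from 50162826 to 50169132 and IRF7 on chromosome 11 from 612553 to 615983. On the annotation used, 22.9% of the exon bases of IRF1 are shared with the antisense gene IRF1-AS1 and 19.3% of those of IRF3 with BCL2L12 on the opposite strand, and whether the counting used strand is not given in the sources used here.

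IRF9 and STAT2, subunits of ISGF3, were both lowest in JUN AA. IRF9, on chromosome 14 from 24630443 to 24637252, was at 51.1 FPKM with the empty vector, 59.8 with JUN WT and 10.9 with JUN AA. Another protein-coding gene annotated on the same strand shares 23.9% of its exon bases. STAT2, on chromosome 12 from 56735381 to 56753987, was at 25.9 FPKM with the empty vector, 17.4 with JUN WT and 5.71 with JUN AA. IRF9 was 4.71 times lower and STAT2 4.53 times lower in JUN AA than in the control, while in JUN WT IRF9 was 1.17 times higher and STAT2 1.49 times lower. The level of IRF9 was 1.98 times that of STAT2 in the control, 3.44 times in JUN WT and 1.90 times in JUN AA.

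CXCL10, which encodes a chemokine for T cells, spans bases 76942271 to 76944650 of chromosome 4. It was at 5.64 FPKM with the empty vector, 7.82 with JUN WT and 0.554 with JUN AA, and so was 10.2 times lower in JUN AA than in the control but 1.39 times higher in JUN WT. The fold in JUN AA rests on a low value and is not precise. With a pseudocount of 0.1 the log2 difference of -2.09 became -3.13. CCL5, another chemokine induced by IRFs and NF-κB, was at 2.72 FPKM with the empty vector and 8.66 with JUN WT, and was listed at 0 with JUN AA. CXCL11 had a mean below 1 FPKM, with 0.574, 2.11 and 0 FPKM in the same order, and CXCL9 did not exceed 0.0512 FPKM.

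**Figure D1:**
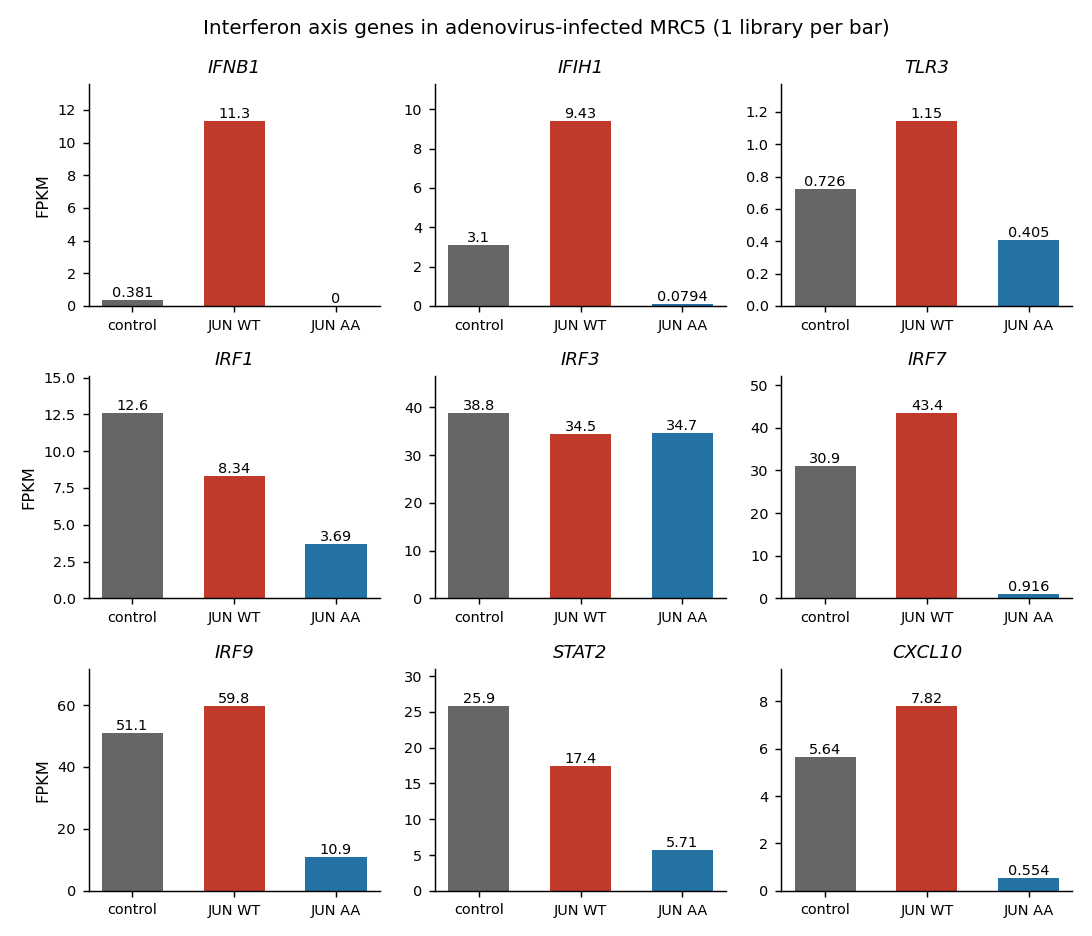
FPKM (y axis, from 0, with its own range in each panel) of the 9 genes in MRC5 cells infected with adenovirus carrying the empty vector (control, grey), JUN WT (red) or JUN AA (blue), with 1 library per bar and hence no error bars. JUN AA is lowest for every gene except IRF3, which stays between 34.5 and 38.8 FPKM, and JUN WT is highest for 6 of the 9 genes, namely IFNB1, IFIH1, TLR3, IRF7, IRF9 and CXCL10.

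Of the 9 genes, 8 passed the filter in the first table. In JUN WT against control, 2 of these 8 (IFNB1 and IFIH1) were at least 2-fold higher on the log2(FPKM + 1) scale and 0 were 2-fold lower, where 6.92% of all 10311 genes were higher and 3.39% lower. In JUN AA against control, 6 of the 8 (IFIH1, IRF1, IRF7, IRF9, STAT2 and CXCL10) were at least 2-fold lower and 0 were higher, where 3.77% of all genes were lower and 5.29% higher. In JUN WT against JUN AA, 6 of the 8 (all but IRF1 and IRF3) were 2-fold higher and 0 were lower, where 6.65% of all genes were higher and 5.61% lower. IRF1 lay just below the line there, at 0.995, and at 1.34 with rescaled FPKM. The 8 genes had a median log2 difference of 0.32 for JUN WT and of -1.96 for JUN AA, each against control. As the members were picked with these values known and both comparisons share the control library, nothing is read from these counts.

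**Figure D2:**
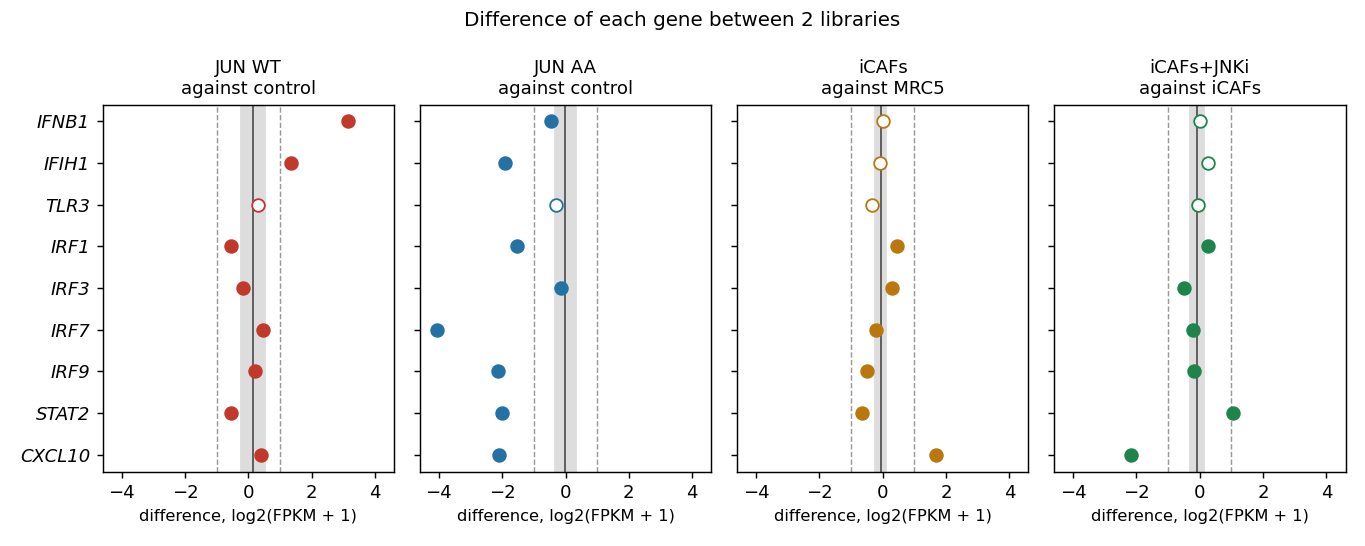
Log2(FPKM + 1) difference (x axis) of each of the 9 genes (y axis) between 2 libraries in 4 comparisons, where filled points passed the filter of a mean of 1 FPKM, open points did not, the grey line and band are the median and quartiles of all genes passing it, and dashed lines mark a 2-fold change. In JUN AA, 6 filled points lie left of the 2-fold line with IRF7 farthest at -4.06. The iCAF comparisons share the iCAFs library, and there the points outside the lines are CXCL10, at 1.69 and -2.16, and STAT2, at 1.05 with JNKi.

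Besides the 9 members, 83 further genes of the pathway were listed by role, of which 43 passed the filter in the first table. Among these 43, 7, among them DDX58, IL10RB, USP18, CCL5, JUN and NFKB1, were at least 2-fold higher with JUN WT than with the empty vector and 0 were lower, beside 6.92% and 3.39% of all genes. With JUN AA, the 2-fold higher genes numbered 3 (TBK1, SOCS1 and JUN) and the 2-fold lower ones 9, among them DDX58, DHX58, MYD88, TMEM173, TRIM25, USP18, ISG15 and CCL5, beside 5.29% and 3.77% of all genes. JUN is the gene that the adenovirus carried, so its calls in both comparisons were fixed by the design. The 43 genes had a median log2 difference of 0.37 for JUN WT and of -0.16 for JUN AA, beside 0.15 and -0.015 for all genes. Among the sensors and their adaptors, DDX58 (RIG-I), which recognises short viral RNA, was at 4.06 FPKM with the empty vector, 16.6 with JUN WT and 0.752 with JUN AA. DDX58 shares 43.2% of its exon bases with an unnamed gene on the same strand. DHX58, its relative without signalling domains, was at 6.47, 8.26 and 0.459 FPKM in control, JUN WT and JUN AA. TRIM25, the ubiquitin ligase that acts on RIG-I, was at 25.9, 26.0 and 5.97 FPKM. MAVS, the mitochondrial adaptor of IFIH1 and DDX58, was at 7.11, 7.87 and 6.38 FPKM, so the RNA sensors differed between libraries far more than the adaptor they share. MYD88, the adaptor of most Toll-like receptors, was at 22.4, 43.9 and 8.54 FPKM, and TMEM173 (STING), the adaptor for cytosolic DNA, at 29.4, 17.4 and 10.9 FPKM. TICAM1, the adaptor of TLR3, was at 8.69, 15.6 and 5.65 FPKM, and EIF2AK2 (PKR), a kinase activated by double-stranded RNA, at 7.16, 13.7 and 4.61 FPKM, both past 2-fold only between JUN WT and JUN AA.

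Of the kinases and adaptors that activate IRF3 and NF-κB, 9 passed the filter. TBK1, the kinase of IRF3, was at 2.01 FPKM with the empty vector, 2.09 with JUN WT and 5.68 with JUN AA with a log2(FPKM + 1) difference of 1.15 in JUN AA. On this scale 1 of the 9 genes was 2-fold higher in JUN AA and 0 were in JUN WT, beside 5.29% and 6.92% of all genes. TRAF3, an adaptor of this group named after its values were seen, had a difference of 0.88 in JUN WT, from 1.09 FPKM with the empty vector to 2.85, and of 1.07 with rescaled FPKM. Of the receptors and JAKs, 7 passed the filter and 0 were 2-fold lower in JUN AA on the same scale, beside 3.77% of all genes. IFNAR1 was at 3.60, 4.96 and 3.13 FPKM, IFNAR2 at 2.43, 3.78 and 2.02 FPKM, JAK1 at 12.0, 16.8 and 13.5 FPKM and TYK2 at 10.6, 13.8 and 8.20 FPKM in control, JUN WT and JUN AA. IL10RB, the shared chain of the receptors for lambda interferons and IL-10, was at 7.96, 18.2 and 4.01 FPKM. Its log2 difference in JUN AA was -0.84, and -1.18 with rescaled FPKM. IFNAR2 and IL10RB each share exon bases with the readthrough gene IFNAR2-IL10RB.

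Feedback inhibitors differed in direction. USP18, an interferon-induced protease that blocks IFNAR2 signalling, was at 26.9 FPKM with the empty vector, 61.2 with JUN WT and 2.62 with JUN AA, and ISG15, the ubiquitin-like protein it removes, at 2305, 3512 and 335 FPKM. SOCS1, an inhibitor of JAKs, was instead highest in JUN AA, with 8.13, 8.88 and 18.3 FPKM in the same order. Its log2 difference in JUN AA was 1.08, and 0.82 after FPKM of every library had been rescaled to 1 sum. Of the factors other than IRFs that bind the IFNB1 enhancer, NFKB1 was at 1.14, 3.55 and 1.77 FPKM, RELA at 52.0, 40.5 and 35.8 FPKM and ATF2, the partner of JUN there, at 1.78, 2.05 and 1.44 FPKM. HMGA1, also on this list, was at 264, 402 and 401 FPKM, with a log2 difference of 0.60 in JUN WT and in JUN AA. Centred on the median gene, the JUN WT differences of IL10RB and NFKB1 were 0.95 and 0.94, below the 2-fold line, whereas those of DDX58, USP18 and CCL5 were 1.65, 1.01 and 1.23.

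**Figure D3:**
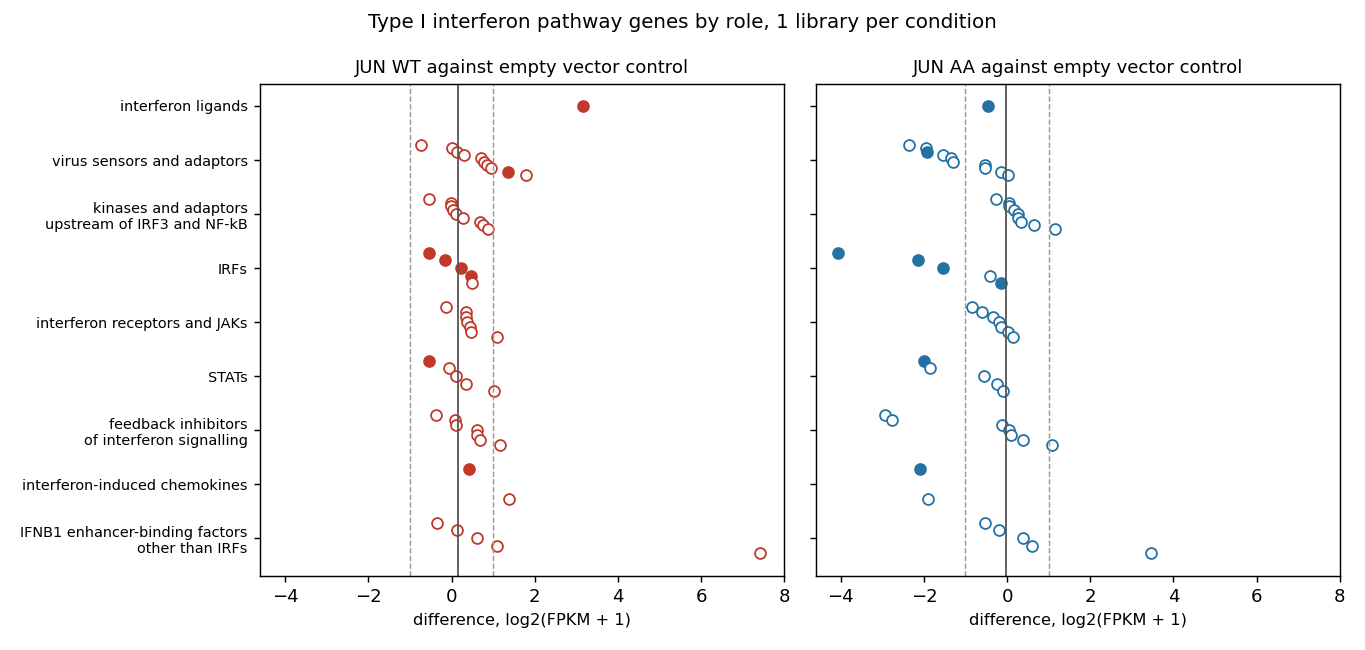
Log2(FPKM + 1) differences (x axis) of pathway genes passing the filter, grouped by role (y axis), in JUN WT (left) and JUN AA (right) against the empty vector control, which both comparisons share, where filled points are those of the 9 members that passed, open points are other genes, the solid line is the median of all genes and dashed lines mark 2-fold. In JUN AA the points left of the 2-fold line are sensors, IRFs, STATs, feedback inhibitors and chemokines, while receptors, JAKs and kinases lie between or right of the lines. The point farthest right in both panels is JUN, the introduced gene, at 7.42 and 3.46.

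In the second table, without adenovirus, IFNB1 was listed at 0 in each of the 3 libraries. JUN was at 57.1, 55.3 and 21.1 FPKM in MRC5, iCAFs and iCAFs+JNKi, respectively. IFIH1 was at 0.763 FPKM in MRC5, 0.658 in iCAFs and 0.992 with JNKi, and TLR3 at 0.329, 0.0520 and 0 FPKM in the same order. Both sensors were below the filter, and without read numbers it cannot be said whether they differed between these libraries. Of the 21 interferon genes, IFNE, an interferon best known from epithelia of the reproductive tract, was the only one to reach 1 FPKM, with 1.11 FPKM in MRC5, 1.75 in iCAFs and 0.266 with JNKi.

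CXCL10 differed from IFNB1 in this table. It was at 0.388 FPKM in MRC5 and 3.48 in iCAFs, and was listed at 0 in iCAFs+JNKi, so it was 8.97 times higher in iCAFs than in MRC5 and had no value from which a fold with JNKi could be taken. At 0.388 FPKM the MRC5 value is itself low, so that the log2 difference of 1.69 became 2.87 with a pseudocount of 0.1. With JNKi the difference of -2.16 became -5.16. CXCL10 passed the filter only through its iCAFs value. Only 98 of 11780 genes had a larger log2 difference in iCAFs against MRC5, and only 28 had a more negative difference with JNKi. The related CXCL11 was at 0.0980 FPKM in MRC5, 0.402 in iCAFs and 0 with JNKi, all low values, and CCL5 and CXCL9 were listed at 0 in all 3 libraries.

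STAT2 had the opposite order in this table, lowest in iCAFs. It was at 27.6 FPKM in MRC5, 17.3 in iCAFs and 36.7 with JNKi, hence 1.60 times lower in iCAFs than in MRC5 and 2.13 times higher with JNKi than in iCAFs. With JNKi its log2 difference was 1.05, close to the 2-fold line, and 1.14 after centring on the median gene. Here too both comparisons share the iCAFs library. IRF9, the partner of STAT2, had another order, at 16.6 FPKM in MRC5, 11.5 in iCAFs and 10.05 with JNKi. The ratio of IRF9 to STAT2 was 0.60 in MRC5, 0.66 in iCAFs and 0.27 with JNKi. IRF1 was at 4.22, 6.16 and 7.51 FPKM, IRF3 at 20.4, 25.3 and 17.4 FPKM and IRF7 at 1.33, 0.998 and 0.733 FPKM in MRC5, iCAFs and with JNKi, all within 2-fold between the libraries compared. Beside these values, the fibroblast list summed to 5556, 3971 and 6096 FPKM in MRC5, iCAFs and with JNKi. With JNKi 4 of its 7 markers were 2-fold higher than in iCAFs, namely COL1A1, COL3A1, PDGFRB and DCN, beside 2.25% of all genes. DCN was at 296, 107 and 409 FPKM in MRC5, iCAFs and with JNKi, and was 2-fold lower in iCAFs than in MRC5. VIM was at 1655 FPKM in iCAFs and 1209 FPKM with JNKi. The endothelial list summed to 2.66, 3.84 and 10.7 FPKM, nearly all of it from TEK, with CDH5 at 0. Their part in the results was not tested.

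**Figure D4:**
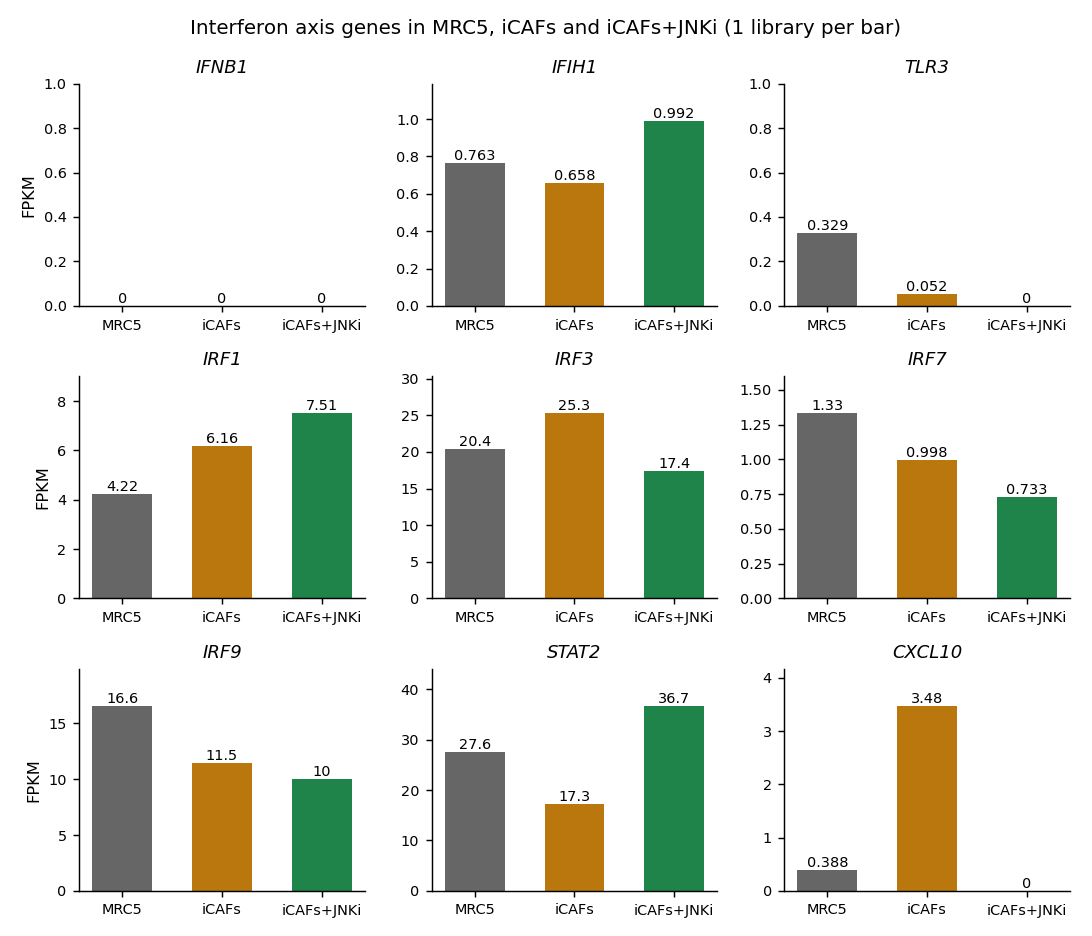
FPKM (y axis, from 0, with its own range in each panel) of the 9 genes in MRC5 (grey), iCAFs (orange) and iCAFs+JNKi (green), with 1 library per bar and hence no error bars. IFNB1 is at 0 in all 3 libraries, CXCL10 is highest in iCAFs at 3.48 FPKM and at 0 with JNKi, and STAT2 is lowest in iCAFs at 17.3 FPKM and highest with JNKi at 36.7 FPKM.

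Of the 9 genes, 6 passed the filter in the second table. In iCAFs against MRC5, 1 of the 6 (CXCL10) was at least 2-fold higher and 0 were 2-fold lower, where 1.94% of all 11780 genes were higher and 1.71% lower. With JNKi against iCAFs, 1 of the 6 (STAT2) was 2-fold higher and 1 (CXCL10) was 2-fold lower, where 2.25% of all genes were higher and 1.97% lower. As CXCL10 passed the filter only through its iCAFs value and both comparisons share that library, nothing is read from these counts. Of the 83 further pathway genes, 45 passed the filter. In iCAFs, SOCS3, the inhibitor induced by gp130 cytokines, was 2-fold higher, at 8.78 FPKM in MRC5, 23.2 in iCAFs and 13.4 with JNKi, and the nuclear DNA sensor IFI16 was 2-fold lower, at 45.5, 18.1 and 18.7 FPKM. With JNKi, 2 of the 45 genes (IFNE and JUN) were 2-fold lower and 0 were higher on the log2(FPKM + 1) scale. Of all genes, 1.97% were lower and 2.25% higher. IFNE passed the filter narrowly, with a mean of 1.04 FPKM and its largest value in iCAFs, so nothing is read from its call against that library. Upstream of interferon, DDX58 was at 4.43, 3.13 and 2.98 FPKM, MAVS at 19.1, 15.7 and 14.9 FPKM and TBK1 at 12.0, 11.1 and 12.5 FPKM in MRC5, iCAFs and with JNKi. Among receptors and JAKs, IFNAR1 was at 11.1, 13.3 and 11.1 FPKM, IFNAR2 at 5.26, 8.63 and 5.45 FPKM, JAK1 at 47.4, 57.4 and 59.8 FPKM and TYK2 at 18.7, 16.1 and 15.7 FPKM. Of the inhibitors, USP18 was at 4.34, 2.63 and 3.88 FPKM and SOCS1 at 3.88, 6.19 and 2.91 FPKM. SOCS1 was thus 2.13 times lower with JNKi than in iCAFs in FPKM, with a log2(FPKM + 1) difference of -0.88.

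Within a library, the order of the levels (FPKM, per length) was as follows. From the highest, the control read IRF9, IRF3, IRF7, STAT2, IRF1, CXCL10, IFIH1, TLR3, IFNB1, and JUN WT read IRF9, IRF7, IRF3, STAT2, IFNB1, IFIH1, IRF1, CXCL10, TLR3. JUN AA read IRF3, IRF9, STAT2, IRF1, IRF7, CXCL10, TLR3, IFIH1, IFNB1, and MRC5 without virus read STAT2, IRF3, IRF9, IRF1, IRF7, IFIH1, CXCL10, TLR3, IFNB1. In iCAFs the order was IRF3, STAT2, IRF9, IRF1, CXCL10, IRF7, IFIH1, TLR3, IFNB1, and with JNKi it was STAT2, IRF3, IRF9, IRF1, IFIH1, IRF7, followed by the 3 genes listed at 0. With 1 library per condition, no neighbours in these orders can be said to differ beyond their spread.

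The genes most like IFNB1 were sought by the Euclidean distance over 4 log2(FPKM + 1) differences (JUN WT and JUN AA against control, iCAFs against MRC5 and JNKi against iCAFs) among 11081 genes. RSAD2 was nearest, at a distance of 0.56, with 0.604 FPKM (empty vector), 9.79 (JUN WT) and 0 (JUN AA). It encodes viperin, an antiviral protein induced by interferon, and shares 6.20% of its exon bases with CMPK2. CTSZ, which encodes the lysosomal protease cathepsin Z, came next at a distance of 0.64, with 6.09, 39.6 and 4.01 FPKM, and shares 31.6% of its exon bases with NELFCD. ISG20, an interferon-induced exonuclease, lay at a distance of 0.90 with 2.07, 35.4 and 0.353 FPKM, and MX2, an interferon-induced GTPase, at 0.94 with 0.803, 8.13 and 0 FPKM. SLC17A9, a vesicular nucleotide transporter, followed at 1.26. The genes nearest to CXCL10 lay farther away, with ANGPTL4 first at a distance of 1.12, at 6.10 FPKM in MRC5, 30.3 in iCAFs and 9.96 with JNKi. The next 3 were NME1-NME2, C7orf55-LUC7L2 and APITD1-CORT at distances from 1.28 upward, readthrough genes whose FPKM depend on how reads were divided with their neighbours, and MOK, a protein kinase gene, followed at 1.58. These distances describe 6 libraries and have no error, and those to IFNB1 rest mainly on the JUN WT and JUN AA values by which it was picked.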

How the data were processed

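RNA-seq libraries of 6 MRC5 cultures were used, 1 per condition, grouped by the sample titles. Per the submitters' processing notes, the authors used hg19, HISAT2 2.1.0 (an aligner) and StringTie 2.1.1 (an assembler that estimates abundance), and deposited FPKM per gene; annotation, strand setting and read numbers are not given in the sources used here. Columns were matched to samples by name, and of rows that share a symbol the one with the highest mean was kept. Differences of log2(FPKM + 1) were computed in Python 3.11.15 (numpy 2.4.6, pandas 2.3.3) for 5 comparisons within a table. Counts of genes cover those whose mean over the 3 libraries of a table reached 1 FPKM, and 2-fold stands for a difference of 1 or more on this scale. No count model or test was used, because FPKM are not counts and there are no replicates. The computation was checked on simulated data, made from control values changed by known folds without noise. That covers the arithmetic only and not the reliability of low values.

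Genes are named if they are members, if a pathway gene passing the filter was past 2-fold, if they anchor the pathway (DDX58, MAVS, TBK1, IFNAR1, IFNAR2, JAK1, TYK2, USP18, SOCS1, JUN) or if they are among the 5 most like IFNB1 or CXCL10. TICAM1 and EIF2AK2 met the second rule only between JUN WT and JUN AA. RELA, ATF2, HMGA1, TRAF3, CXCL9, CXCL11, IFNL1 and marker genes were named after their values were seen. Values of 1 gene that these rules name are not reported here. The members and lists were chosen with earlier results of these data known. Positions and shared exon bases come from GENCODE on GRCh37. Promoters were found in RefSeq for 7 of 9 genes and matched exactly to GRCh37. Alternatives were a smaller pseudocount (0.1), rescaling of each library to a total of 1000000, centring on the median gene, no filter, a filter of 5 FPKM and a 1.5-fold threshold. Figures were drawn with matplotlib 3.10.9.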

Additional observations from a re-analysis of the deposited data

How the results depend on the processing

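With a filter of 5 FPKM, which leaves fewer genes to count, 0 of 5 members were past 2-fold in JUN WT against control in place of 2 of 8. In JUN WT against JUN AA the count was 3 of 5 in place of 6 of 8. Of all genes passing this filter, 11.8% and 14.8% were past 2-fold in these comparisons. Under this filter 0 of 4 members were past 2-fold in iCAFs against MRC5 in place of 1 of 6, beside 3.62% of all genes. With JNKi the count was 1 of 4 in place of 2 of 6, beside 3.88% of all genes. Of the 92 pathway genes, members included, 34 passed this filter in the first table and 42 in the second. Past 2-fold were then 5 of 34 in place of 9 of 51 in JUN WT against control, beside 11.8% of all genes. With JNKi they were 2 of 42 in place of 4 of 51, beside 3.88% of all genes. JUN, the introduced gene, is among the pathway genes counted in the first table. With a 1.5-fold threshold, 2 of 6 members passed in iCAFs against MRC5 in place of 1, beside 10.96% of all genes. Of the 51 pathway genes passing the main filter in each table, 21 were past 1.5-fold in JUN WT against control, beside 32.1% of all genes. The count was 32 in place of 19 in JUN WT against JUN AA, beside 34.2% of all genes. It was 7 in place of 3 in iCAFs against MRC5, beside 10.96%, and 11 with JNKi, beside 12.7% of all genes. The other counts stayed within 1.5 times of the main ones.

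Of 135 alternative values of the members' differences, 39 moved by more than 0.25 on the log2 scale, 22 of them with rescaled FPKM and 17 with the smaller pseudocount, and 0 of those past 2-fold changed sign. The sign changed for 2 small differences, that of TLR3 with JNKi (-0.073, and 0.026 centred) and that of IRF3 in JUN WT against JUN AA (-0.0093, and 0.28 rescaled). With rescaling the difference of IRF7 in JUN AA was -4.67 in place of -4.06 and that of IFIH1 -2.69 in place of -1.93. Over all genes, the balance of 714 higher and 350 lower in JUN WT became 436 and 522 with centring, the 545 higher and 389 lower in JUN AA became 338 and 957 with rescaling, and the 686 higher and 578 lower in JUN WT against JUN AA became 1770 and 364 with rescaling and 411 and 822 with centring. The 228 higher and 202 lower in iCAFs became 318 and 356 with the smaller pseudocount, and with JNKi the 265 and 232 became 323 and 182 with centring and 411 and 244 with rescaling. No paired analysis was possible because each condition has 1 library. The number of reads is unknown, so values below 1 FPKM cannot be given a precision.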
